A study of Mus musculus with 10 samples.

Results

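The 8 members described here were *Bhlhe40*, *Bhlhe41*, *Arntl*, *Clock*, *Cry1*, *Cry2*, *Ciart* and *Dbp*, circadian clock genes of 29183 genes listed for both lineages. They were chosen by name, with measured values in view, as clock genes listed in both count tables whose levels could be set out by plate, lineage and cell group. Cells were traced in C57BL/6 mice carrying a *Rosa-TdTomato* reporter, and each cell was sorted into a well of a 96-well plate for UMI-based sequencing, in which every captured transcript is counted once. *Grem1-TdT* mice, with the tamoxifen-inducible *Grem1-creERT* driver, were given tamoxifen chow for 2 weeks from 5 to 6 weeks of age, and articular cartilage (AC) and growth plate (GP) were digested with collagenase type II (8 plates, numbered 1, 2 and 4 to 9). *Lepr-TdT* mice were of paired age, with the constitutive *Lepr-cre* driver and no tamoxifen stated in the labels, and whole bones were digested with collagenase type I and gated CD45-Ter119-CD31- (2 plates). The mice behind each plate, whether a *Grem1* plate held AC cells, GP cells or both, and the hour of collection are not given in the sources used here. Thus lineage cannot be told apart from *Cre* driver, tamoxifen as stated, tissue, digestion, gate, UMIs per cell or hour. The p-values measure the spread between plates, which may be technical. In fits without a filter on low counts, described below, that spread was in effect shared over genes.

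Of 768 *Grem1*-lineage wells, 684 had at least 350 detected genes and were kept, as were 160 of 162 *Lepr*-lineage wells. *Grem1*-lineage cells were split by the UMIs of *Clu*, *Cilp* and *1500015O10Rik* together, above those of *Cnmd* (414 cells, called articular-like) or not above them (270 cells, called *Cnmd*-rich, 4 of them tied). Plate sums held 51229 to 78395 UMIs in articular-like and 57206 to 106289 in *Cnmd*-rich cells, and the median per cell was 1217 and 2218.5 UMIs. *Lepr*-lineage plates held 64310 and 59981 UMIs over the shared genes, with medians of 557.5 and 467 per cell against 1243 to 1612 on the *Grem1* plates. The splitting genes aside, 6 of 7 listed articular markers were higher in articular-like cells, with *Fn1* the exception. The listed growth plate markers other than *Cnmd*, which was used for the split, were *Epyc* and *C1qtnf3*. Both were higher in *Cnmd*-rich cells. All 5 listed marrow stromal markers, led by *Cxcl12*, were higher in *Lepr*-lineage plates. Osteoblast markers summed to 150.3 to 40960 CPM (counts scaled to a common library total) in articular-like and 475.1 to 17360 in *Cnmd*-rich sums. Of the 5 listed, 4 were higher in articular-like cells, with *Alpl* the exception, and articular-like sums were highest on plates 5 and 7 (34190 and 40960 CPM). The part of osteoblast transcripts in the cell group differences was not tested. Blood markers summed to at most 3646 CPM in any *Grem1* plate. Well barcodes are a fixed set of the plate format, and 96 were shared by the *Grem1* plates.

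The mammalian clock is a feedback loop of transcription. CLOCK and ARNTL (BMAL1) pair and bind E-boxes, short DNA motifs, to drive genes that include their own repressors, the cryptochromes among them. BHLHE40 and BHLHE41 (DEC1 and DEC2) bind E-boxes as repressors, CIART (CHRONO) represses CLOCK-ARNTL, and DBP is a D-box activator whose gene is a well-known output of the loop. *Bhlhe40* and *Bhlhe41* also respond to hypoxia, serum and other stimuli, and cartilage is known to hold a working clock.

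Upstream bases are shown for *Bhlhe41*, which varied most among plates of the members that passed the filter below, and *Ciart*, which was not detected in the *Lepr* lineage, to set the E-box of the loop beside the values. They come from RefSeq on GRCm38.p6, minus strand, written 5′ to 3′ with E-boxes (CACGTG) in capitals, and end where the GENCODE gene begins.
Bhlhe41, chr6:145865559-145865670: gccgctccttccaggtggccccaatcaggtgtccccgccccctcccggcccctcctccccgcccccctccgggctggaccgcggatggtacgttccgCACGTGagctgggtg
Ciart, chr3:95882252-95882478: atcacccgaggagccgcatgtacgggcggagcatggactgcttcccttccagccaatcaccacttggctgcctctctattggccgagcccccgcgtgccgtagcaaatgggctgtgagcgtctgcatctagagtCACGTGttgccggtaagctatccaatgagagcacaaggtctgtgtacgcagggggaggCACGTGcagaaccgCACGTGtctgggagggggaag

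In the 250 bases before the RefSeq start, *Ciart* had 3 E-boxes, starting 116, 58 and 44 bases before it. *Bhlhe41* had 1 at 153 bases and *Cry1* had 1 at 60 bases. *Arntl*, *Clock*, *Cry2* and *Dbp* had none in this window, *Bhlhe40* had no entry, and no member had a D-box (TTATGTAA, both strands). Among 32851 such windows, 6.02% held CACGTG and 0.819% held the D-box. A match is a string of letters, and its absence from the window says nothing about binding. By GENCODE on mm10, *Bhlhe41* lies at chr6:145858243-145865558, *Bhlhe40* at chr6:108660629-108666925, *Dbp* at chr7:45705088-45710203, *Cry2* at chr2:92403646-92434043 and *Ciart* at chr3:95878503-95882251. Exons of *Bhlhe40*, *Bhlhe41*, *Arntl*, *Cry2* and *Dbp* overlap an exon on the other strand (*0610040F04Rik*, *Gm43909*, *Gm45355*, *D930015M05Rik* and *Sphk2*), and the strand setting of the counting is not stated, so reads of these pairs may be mixed.

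Within the *Grem1* lineage, 5 of the 8 members differed between the cell groups. The repressors *Bhlhe40*, *Cry2* and *Ciart* and the output gene *Dbp* were higher in articular-like cells, by 1.19 to 2.71 on the log2 scale, whereas the repressor *Bhlhe41* was higher in *Cnmd*-rich cells. Plate sums were fitted in edgeR, and p-values of its quasi-likelihood test were adjusted by Benjamini-Hochberg over all genes tested. Only 3 of the 8 members passed the filter on low counts (*Bhlhe40*, *Bhlhe41* and *Dbp*), and the rest are given from a fit without that filter. In fits without the filter, here and between lineages, the spread was in effect shared over genes, so their p-values may be too small. Between cell groups the standard error of *Bhlhe41* was 0.20 without the filter against 0.40 with it. That of *Bhlhe40* was 0.21 against 0.22, and that of *Dbp* was 0.29 in both. *Dbp* was low in *Cnmd*-rich cells and reached the filter in articular-like cells, so the count of members that differed is a description. The filtered fit called 19.7% of 1075 genes higher in articular-like and 21.6% higher in *Cnmd*-rich cells, so a call in either direction was common. Without the filter, 3.08% of 12514 genes were called higher in articular-like cells. The members' log2 fold changes without the filter ran from -1.58 (*Bhlhe41*) to 2.71 (*Ciart*), with a median of 0.65 over all 8. The median over all genes tested was 0.01, but most of those genes did not pass the filter. Since the members were chosen with values in view, these medians are descriptions. CPM from the filtered fit take the UMIs of the genes that passed as their total, after TMM normalisation.

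**Figure D1:**
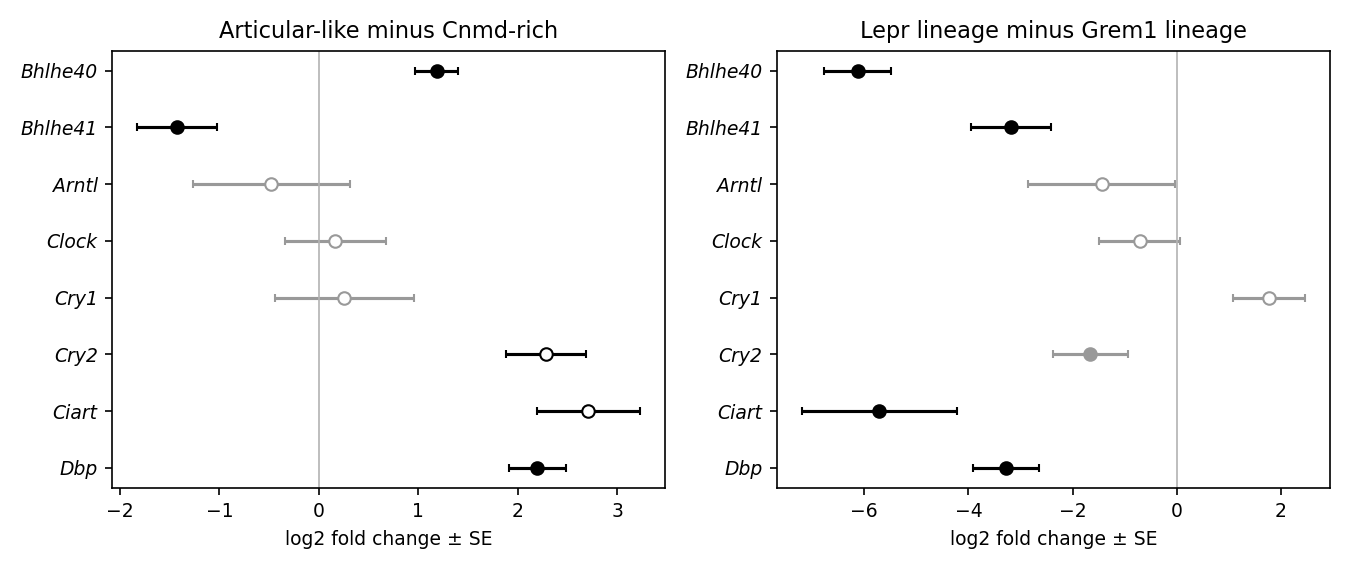
The log2 fold change of each member (points) with its standard error (bars), articular-like minus *Cnmd*-rich in the left panel and *Lepr* minus *Grem1* lineage in the right panel. Filled points passed the filter on low counts, open points come from the fit without it, and black points had an adjusted p under 0.05. *Bhlhe41* is the called member left of 0 in the left panel, and every called member lies left of 0 in the right panel.

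*Bhlhe41* was at 643, 1486, 1129, 2249, 2478, 2478, 2305 and 2525 CPM in articular-like cells of plates 1, 2, 4, 5, 6, 7, 8 and 9. In *Cnmd*-rich cells of the same plates it was at 1016, 1405, 2570, 4590, 7883, 8290, 9022 and 6278 CPM. Plate 2 was the exception to the higher level in *Cnmd*-rich cells, with nearly equal values, so the order held on 7 of 8 plates, and the ranges of the groups overlapped. Means were 1912 ± 726 CPM in articular-like and 5132 ± 3200 CPM in *Cnmd*-rich cells (SD, n = 8 plates). The log2 fold change was -1.43 (SE 0.40, adjusted p = 0.00733). Scaled over all shared genes without the filter, *Bhlhe41* was higher in *Cnmd*-rich cells on 8 of 8 plates. *Cnmd*-rich cells also held more UMIs each, and the comparison is of shares of all UMIs.

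*Bhlhe40*, the paralogous repressor, went the other way. In articular-like cells it had a lowest, median and highest plate of 2589, 3100 and 4121 CPM, and in *Cnmd*-rich cells of 636, 1406 and 2151 CPM. Every articular-like sum lay above every *Cnmd*-rich sum, but the share of all genes with such an order was not counted. The log2 fold change was 1.19 (SE 0.22, adjusted p = 0.000208). The paralogues thus differed in direction on 7 of 8 plates.

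**Figure D2:**
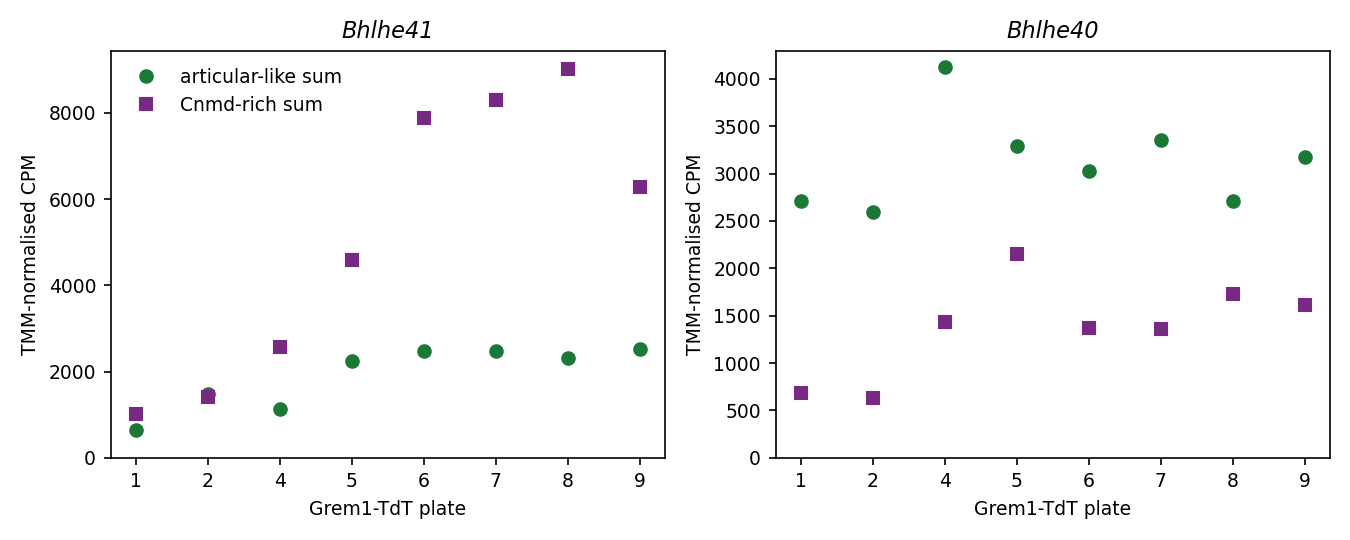
TMM-normalised CPM (vertical axis) of *Bhlhe41* and *Bhlhe40* in each *Grem1-TdT* plate (horizontal axis), with circles for articular-like and squares for *Cnmd*-rich sums. For *Bhlhe41* the squares range from 1016 CPM on plate 1 to 9022 CPM on plate 8, and for *Bhlhe40* all circles (2589 CPM or more) lie above all squares (2151 CPM or less).

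*Dbp*, the output gene, had a lowest, median and highest plate of 180, 407 and 585 CPM in articular-like cells and of 21.3, 86.3 and 141 CPM in *Cnmd*-rich cells. Over the 8 plates it had 156 UMIs in articular-like and 51 in *Cnmd*-rich cells. The log2 fold change was 2.20 (SE 0.29, adjusted p = 3.5e-06 by edgeR) in the filtered fit, which *Dbp* entered through articular-like cells. Without the filter it was 2.05 (SE 0.29, adjusted p = 1.4e-10 by edgeR). *Cry2*, a cryptochrome repressor, had 10, 7, 11, 16, 4, 8, 7 and 8 UMIs in articular-like cells of plates 1, 2 and 4 to 9. In *Cnmd*-rich cells it had 2, 2, 6, 0, 3, 1, 0 and 5 UMIs, so each plate had more in articular-like cells although those sums were mostly smaller. Without the filter its log2 fold change was 2.28 (SE 0.40, adjusted p = 1.23e-06). *Ciart*, the CLOCK-ARNTL repressor, had 11, 2, 6, 6, 10, 3, 4 and 5 UMIs in articular-like cells and 1, 3, 2, 1, 1, 0, 1 and 0 in *Cnmd*-rich cells of these plates. On plate 2 the raw count was higher in *Cnmd*-rich cells, and the plate had 34.9 CPM in articular-like and 39.5 CPM in *Cnmd*-rich cells from plain totals. After TMM normalisation over all shared genes *Ciart* was higher in articular-like cells on 8 of 8 plates. Its log2 fold change without the filter was 2.71 (SE 0.52, adjusted p = 1.22e-05).

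**Figure D3:**
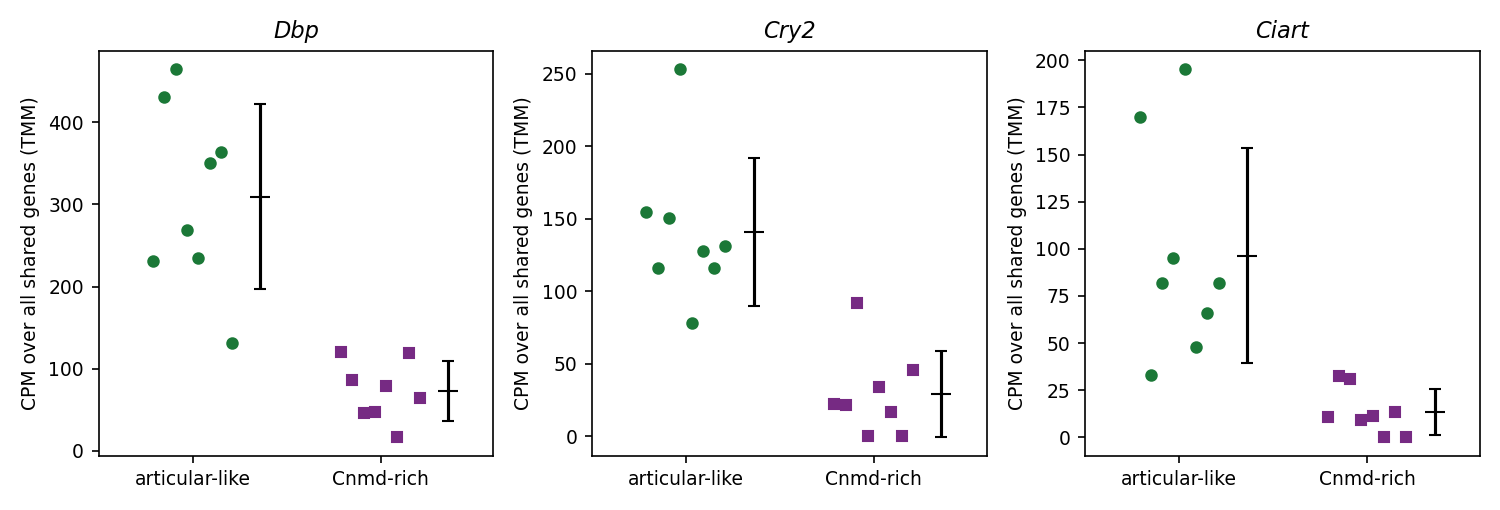
CPM over all shared genes after TMM normalisation (vertical axis) of *Dbp*, *Cry2* and *Ciart* in articular-like (circles) and *Cnmd*-rich (squares) sums, 1 point per plate in plate order, with the mean and SD of 8 plates as bars. Articular-like *Dbp* averaged 309 CPM against 72.4 CPM, *Cry2* 141 against 29.0 CPM and *Ciart* 96.4 against 13.5 CPM.

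The activators and *Cry1* were scarce and did not pass the test. *Clock* had 22 UMIs in articular-like and 27 in *Cnmd*-rich cells, with a log2 fold change of 0.17 (SE 0.51, adjusted p = 0.89 in the edgeR fit without the filter). *Arntl*, its partner, had 6 and 12 UMIs (-0.48, SE 0.79, adjusted p = 0.74), and *Cry1* had 11 and 13 UMIs (0.26, SE 0.70, adjusted p = 0.88). A difference of the size seen for *Bhlhe40* was not detectable at this depth for *Clock*, *Arntl* or *Cry1*. The groups differed in other ways beside these genes. The glucocorticoid-responsive list (*Fkbp5*, *Ddit4*, *Cebpd*, *Errfi1*, *Cdkn1a* and *Angptl4*) summed to 3457 to 6600 CPM in articular-like and 2067 to 3508 CPM in *Cnmd*-rich cells. Of its 5 tested genes, 2 were called higher in articular-like cells. The list did not move as a set, since 3 of its 6 genes had a log2 fold change above 0 without the filter (median -0.07). The part of this list in the result was not tested.

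Whether plates fall into groups by the members was described without a test, since the members were chosen with this pattern in view and the division of plates 1, 2 and 4 from 5 to 9 was known from earlier results of these data. *Bhlhe41* was lower on plates 1, 2 and 4 than on plates 5 to 9 in both cell groups. The highest of plates 1, 2 and 4 and the lowest of plates 5 to 9 were 1486 and 2249 CPM in articular-like cells, a 1.51-fold step, and 2570 and 4590 CPM in *Cnmd*-rich cells, a 1.79-fold step. Of the 1075 genes that passed the filter, 2.14% lay in that order in both groups. In CPM the widest step in the order of the plates also lay between plates 1, 2 and 4 and plates 5 to 9 in both groups. On the log2 scale the widest step was elsewhere. It set plate 1 alone at the bottom in articular-like cells (a step of 0.78) and plates 1 and 2 in *Cnmd*-rich cells (0.86). Plate 4, at 2570 CPM in *Cnmd*-rich cells, lay between plates 1 and 2 and plates 5 to 9. By *Bhlhe41*, the plates lay in a graded order in *Cnmd*-rich cells, whereas plates 5 to 9 lay close together in articular-like cells (2249 to 2525 CPM).

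*Bhlhe40* and *Dbp* did not divide the plates in this way. *Bhlhe40* was highest on plate 4 in articular-like cells, whereas in *Cnmd*-rich cells plates 1 and 2 (682 and 636 CPM) lay below the rest. *Dbp* was lowest on plate 9 in articular-like cells (180 CPM) and on plate 7 in *Cnmd*-rich cells (21.3 CPM). None of these 3 members divided the plates at the same place in both cell groups by its widest step on the log2 scale, as 67 of 1075 genes did. The SD of log2 CPM over plates was 0.70 for *Bhlhe41* in articular-like and 1.21 in *Cnmd*-rich cells, against a median over genes of 0.43 and 0.39. By this measure 86.4% and 98.5% of genes varied less.

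The share of cells with a *Bhlhe41* UMI was also lower on plates 1, 2 and 4 in both cell groups. Each cell was thinned to 796 UMIs, which left out 68 shallower cells. In *Cnmd*-rich cells the share was 43.8%, 60% and 68% on plates 1, 2 and 4 and 85%, 94.9%, 96.3%, 96.9% and 86.5% on plates 5 to 9. In articular-like cells it was 39.5%, 53.9% and 35.8% on plates 1, 2 and 4 and 63.6%, 66.7%, 54.9%, 56.4% and 63% on plates 5 to 9. The share on plate 2, 53.9%, was thus close to that on plate 7, 54.9%, and the order of the plates was narrower in articular-like cells. Before thinning, the shares ran from 60.6% to 100% in *Cnmd*-rich and from 40.4% to 81.4% in articular-like cells.

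**Figure D4:**
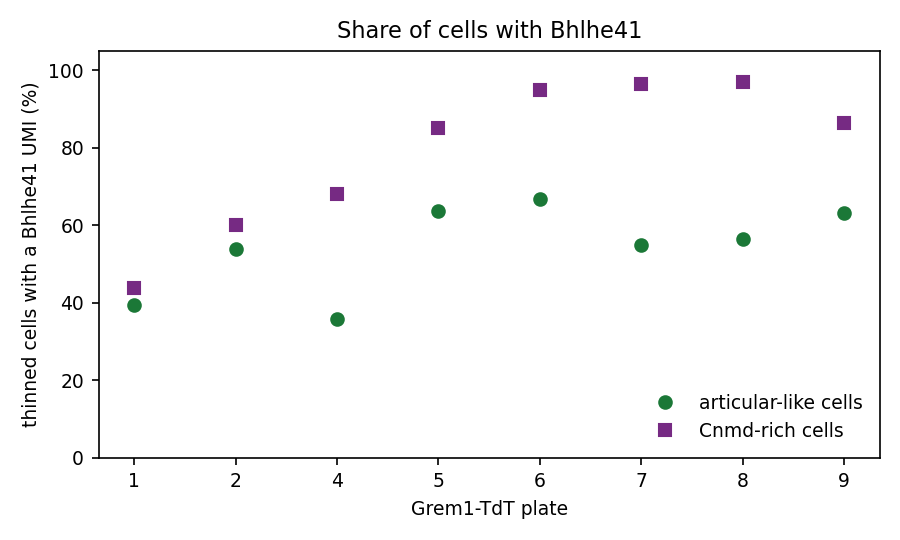
The percentage of cells, thinned to 796 UMIs each, with a *Bhlhe41* UMI (vertical axis) by *Grem1-TdT* plate (horizontal axis), with circles for articular-like and squares for *Cnmd*-rich cells. The squares run from 43.8% on plate 1 to 96.9% on plate 8 and the circles from 35.8% on plate 4 to 66.7% on plate 6.

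Other values moved with *Bhlhe41* across plates. The immediate early list, 11 genes such as *Fos*, *Egr1* and *Atf3* that cells induce within minutes of a stimulus, summed to 17180, 16110 and 23020 CPM in *Cnmd*-rich cells of plates 1, 2 and 4 and to 32220 to 43860 CPM on plates 5 to 9. In articular-like cells it summed to 18500, 20460 and 30740 CPM on plates 1, 2 and 4 and to 26540 to 36760 CPM on plates 5 to 9, so that plate 4 lay above plate 8. Over both cell groups together, the median UMIs per cell were 1243 to 1322 on plates 1, 2 and 4 and 1472 to 1612 on plates 5 to 9. Within each cell group these medians overlapped. In articular-like cells they were 1070.5 to 1209.5 on plates 1, 2 and 4 and 1086 on plate 6. In *Cnmd*-rich cells they were 1986 to 2157 on plates 1, 2 and 4 and 1919.5 on plate 7. With each cell thinned to the same number of UMIs, *Bhlhe41* was at 1192 CPM at most on plates 1, 2 and 4 and 1626 CPM at least on plates 5 to 9 in articular-like cells, and at 2312 and 4652 CPM in *Cnmd*-rich cells. The part of the immediate early genes in the plate order was not tested. According to the labels, cells were allotted to plates at random.

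The genes most like *Bhlhe41* over the 16 plate sums, each cell group centred on its own mean, were *Btg2*, *Abhd2*, *Actb*, *Dnajb1* and *Erdr1*, with Pearson's r of 0.94, 0.94, 0.93, 0.92 and 0.90. *Btg2*, an antiproliferative early response gene, is in the immediate early list, *Dnajb1* encodes a heat shock co-chaperone and *Actb* encodes cytoplasmic actin. The genes most like *Dbp* were *Gm14227*, *Commd1*, *Gm12589*, *Eprs* and *Gm22750*, with r from 0.64 to 0.71. These values are descriptions over sums that share plates, depth and scaling. *Ciart* did not pass the filter and was given no such genes.

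Between the lineages, 4 of the 8 members were lower in *Lepr*-lineage cells and none was higher. They were the repressors *Bhlhe40*, *Bhlhe41* and *Ciart* and the output gene *Dbp*. The filtered edgeR fit tested 2944 genes, of which 16.8% were called higher in the *Grem1* and 12.2% higher in the *Lepr* lineage, and 5 members passed the filter. Without the filter, 4.74% of 13283 genes were called higher in the *Grem1* lineage. The members' log2 fold changes without the filter ran from -6.34 (*Bhlhe40*) to 1.77 (*Cry1*), with a median of -2.63. The median over all genes tested was -0.79, and these medians are descriptions for the same reason as above. *Bhlhe40*, *Cry2*, *Ciart* and *Dbp* had 0 to 4 UMIs on each *Lepr* plate and passed the filter through the *Grem1* plates alone, so this count is a description. Without the filter, adjusted p-values by edgeR were 2.24e-25 for *Bhlhe40*, 0.0053 for *Ciart*, 2.19e-06 for *Dbp* and 0.0819 for *Cry2*.

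*Bhlhe40* had 163 to 362 UMIs on each of the 8 *Grem1* plates and 4 UMIs, in 3 of 74 cells, on *Lepr* plate 1 and 0 on *Lepr* plate 2. In CPM the *Grem1* plates ran from 1275 to 2597 and the *Lepr* plates were at 53.1 and 0. The log2 fold change was -6.13 (SE 0.64, adjusted p = 4.57e-06). *Bhlhe41* ran from 814 to 6083 CPM on *Grem1* plates and was at 239 and 561 CPM on *Lepr* plates 1 and 2, so the lowest *Grem1* plate, plate 1, came near the higher *Lepr* plate. The log2 fold change was -3.18 (SE 0.77, adjusted p = 0.0055). Without *Lepr* plate 1 it was -2.79 and no longer passed (adjusted p = 0.0603), and adjusted p-values over all alternatives ran from 3.82e-13 to 0.08. With plates 1 and 2 of each lineage alone, which leaves out plates 4 to 9, it was -1.37 (adjusted p = 0.08 by edgeR), and with the plate number as a replicate block it was -1.44 and passed (adjusted p = 0.013), although plates of different lineages share only a number. *Bhlhe41* UMIs were found in 14 of 74 and 20 of 86 *Lepr*-lineage cells, and 14 of the 40 UMIs on plate 2 came from 1 cell. Against articular-like cells alone the difference was -2.01 and against *Cnmd*-rich cells alone -3.47 (adjusted p = 0.00845 and 0.00758 by edgeR).

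*Dbp* ran from 106 to 299 CPM on *Grem1* plates and was at 13.3 and 28.0 CPM on the *Lepr* plates, from 1 and 2 UMIs. Its log2 fold change was -3.28 (SE 0.63, adjusted p = 0.00108 by edgeR) in the filtered fit, which *Dbp* entered through the *Grem1* plates. *Ciart* had 56 UMIs over the *Grem1* plates, with 3 to 12 on each, and 0 on both *Lepr* plates. Set against the 3 counts that a count of 0 over both *Lepr* plates allows, it was at least 1.96-fold lower in the *Lepr* lineage. The adjusted p was 0.00913 by edgeR in the filtered fit, which *Ciart* entered through the *Grem1* plates. Without *Lepr* plate 1 or *Lepr* plate 2 the adjusted p was 0.0563 and 0.0652, and over all alternatives it ran from 0.00373 to 0.0652. *Cry2* ran from 7 to 17 UMIs on the *Grem1* plates and had 0 and 4 UMIs on the *Lepr* plates, and its log2 fold change of -1.66 (SE 0.71) did not pass (adjusted p = 0.09 by edgeR). Against articular-like cells alone *Cry2* passed, at -2.44 (adjusted p = 0.0135 by edgeR), and without *Lepr* plate 2, where all 4 UMIs lay, it also passed (adjusted p = 0.0149). Over all alternatives its adjusted p ran from 0.0135 to 0.433.

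*Cry1* was the 1 member with a higher fitted level in the *Lepr* lineage, at a log2 fold change of 1.77 that did not pass (SE 0.68, adjusted p = 0.092 by edgeR without the filter). All 14 of its *Lepr*-lineage UMIs came from 10 cells of plate 2 and none from plate 1, against 0 to 8 UMIs on the *Grem1* plates. Without *Lepr* plate 1, *Cry1* passed the filter and was called higher in the *Lepr* lineage, at 2.91 (adjusted p = 0.0272 by edgeR), opposite to the members called with both plates. *Clock* had 4 and 1 UMIs on the *Lepr* plates and 1 to 11 on the *Grem1* plates, and *Arntl* had 0 and 1 against 0 to 4. Their log2 fold changes were -0.71 (SE 0.77) and -1.44 (SE 1.41), with adjusted p-values of 0.672 and 0.65 by edgeR, and without *Lepr* plate 2 that of *Clock* was 0.0801 (adjusted p = 0.959 by edgeR). The immediate early list moved with the lineage as well. It summed to 3235 and 4596 CPM on *Lepr* plates and to 19240 to 43640 CPM on *Grem1* plates, and all 10 of its tested genes were lower in the *Lepr* lineage. Its part in the difference of *Bhlhe40* and *Bhlhe41* was not tested.

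**Figure D5:**
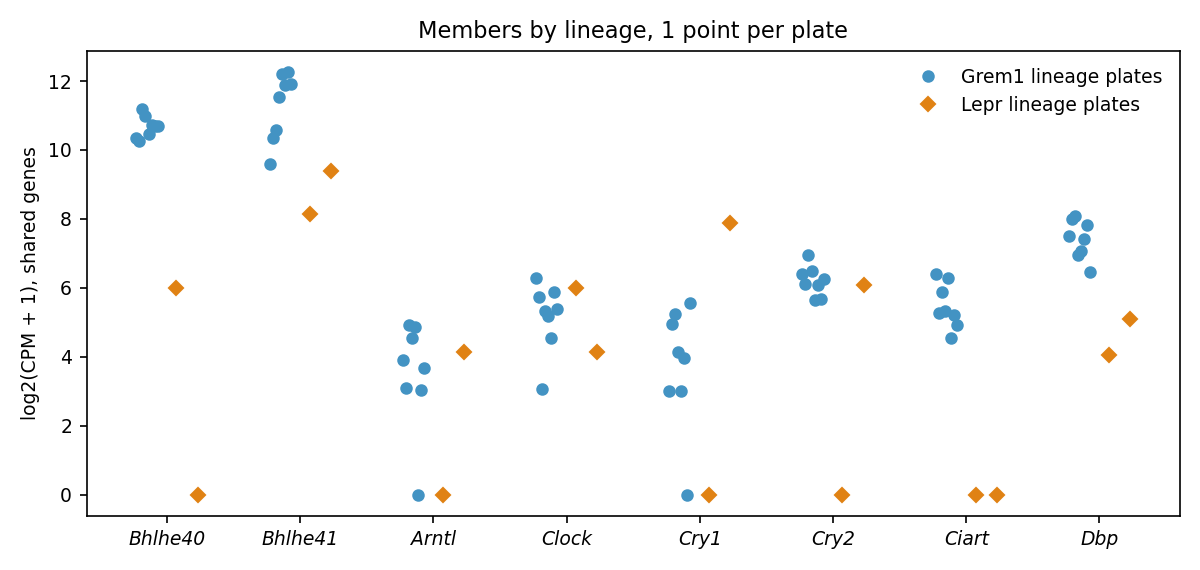
The level of each member as log2(CPM + 1) over the shared genes (vertical axis), with circles for the 8 *Grem1*-lineage and diamonds for the 2 *Lepr*-lineage plates. Both diamonds of *Bhlhe40*, *Bhlhe41*, *Ciart* and *Dbp* lie below all circles of that gene, and the share of all genes with such an order was not counted. For *Cry1*, 1 diamond (14 UMIs) lies above all circles and 1 is at 0.

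Of 31 other clock genes, 14 were listed for both lineages, among them the kinases that phosphorylate PER proteins and the ubiquitin ligases that mark CRY and PER proteins for breakdown. Between cell groups, *Csnk1a1*, a casein kinase, was the only one to pass the filter and was higher in articular-like cells (418 ± 58.9 against 276 ± 77.4 CPM, SD, n = 8; log2 fold change 0.58, SE 0.18, adjusted p = 0.017 by edgeR). Without the filter *Csnk1a1* did not pass (adjusted p = 0.362), whereas *Csnk1e*, another casein kinase, was higher in articular-like cells (log2 fold change 1.74, adjusted p = 0.000912 by edgeR). None of the 14 was called lower. Their median was 0.38 without the filter, against 0.01 over all genes tested, a description because the list was chosen with earlier results known. Between lineages 9 were tested, and *Csnk1a1* alone differed, being lower in *Lepr*-lineage cells (-1.01, SE 0.32, adjusted p = 0.0285 by edgeR).

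Clock genes listed for the *Lepr* lineage alone were not analysed here in *Grem1*-lineage cells. *Rorb*, a nuclear receptor of the ROR family, whose members activate *Arntl*, had 94 and 138 UMIs on the 2 plates, in 45 of 74 and 53 of 86 cells. Glucocorticoid-induced *Tsc22d3* had 52 and 37 UMIs. *Per1*, a light- and glucocorticoid-inducible repressor, had 15 and 6, and the D-box activator *Tef* had 10 and 4. The repressors *Nr1d1* and *Nr1d2* had 3 and 5 and 3 and 2 UMIs, *Per2* had 1 on each plate and *Per3* had 1 and 5. *Hlf*, *Usp2* and *Wee1* had 0 of 304233 UMIs, which allows up to 9.86 CPM (3 counts).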

How the data were processed

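UMI counts per gene and cell were used as the authors deposited them, as whole numbers without normalisation. Per the submitters' processing notes, UMI-tools, STAR, featureCounts, SAMtools and Seurat were used with mm10, and versions and strand settings are not given in the sources used here. Plates were placed by their labels. The *Grem1* table used here follows the gene order of the *Lepr* table (50508 genes) and stops part-way, at an incomplete row that was left out, so 29183 genes are shared and later ones, *Per* and *Nr1d* genes among them, were not analysed in *Grem1*-lineage cells. CPM compared between groups take these genes as their total. The minimum was counted over the genes listed for each lineage, thus over fewer genes in *Grem1*-lineage cells. Wells under 350 detected genes were dropped, no doublet caller was run on single wells, and UMIs were summed per plate and group. Intervals and limits for counts of 0 (3 counts) cover counting error only.

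Sums were tested in R 4.3.3 with edgeR 4.0.16 (TMM, filterByExpr, quasi-likelihood test, Benjamini-Hochberg adjustment at 0.05), and with DESeq2 1.42.0 as an alternative. Standard errors are approximate, from the log2 fold change and the F statistic. The scripts were tested on simulated data. Other alternatives were size factors, no filter, no gene minimum, abundant genes left out, each plate left out, other cell splits and thinning. Each cell group alone against the *Lepr* lineage, the splitting genes left out, the widest step between plates, and unfiltered fits with the block or without each plate were chosen after seeing the data. Both sums of a plate come from the same plate, and their deviations from the group means correlated across genes in every pair (r = 0.187 to 0.454, 8 of 8 plates). The members and gene lists were chosen with earlier results of these data known. Named genes were the members, the listed clock genes and, for *Bhlhe41*, *Dbp* and *Ciart*, the 5 genes with the highest correlation, of which *Ciart* had none because it did not pass the filter. Results for some genes of these lists are not reported here.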

Additional observations from a re-analysis of the deposited data

Results flagged for a closer look

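For each of the 8 members, the *Grem1* plates were searched for a plate far from the others in articular-like cells, *Cnmd*-rich cells and all *Grem1*-lineage cells, which made 24 groups of 8 plates. A plate was marked when its gap to the nearest plate took up more of the whole range than Dixon's 95% critical value allows, which chance does in about 1 in 20 groups, and 2 groups were marked. *Cry1* in *Cnmd*-rich cells was at 73.1 CPM over all shared genes on plate 9, against 18.8 CPM on the next plate, from 8 UMIs. *Cry2* in articular-like cells was at 253 CPM on plate 5, against 154 CPM on the next plate, from 16 UMIs. *Bhlhe41* was not marked in any of its 3 groups.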

How the results depend on the processing

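The number of genes called between cell groups was 444, and 710 without the filter on low counts, where 12514 genes were tested. It was 515 with the plate as a replicate block, the paired fit, which changed no member's call. Leaving out each plate gave 385 to 441. Between lineages 853 genes were called, and 529 to 850 with 1 plate left out, the lowest without *Lepr* plate 2. With plates 1 and 2 of each lineage alone, 489 were called with a replicate block and 451 without it, in 1915 genes tested. Plates of different lineages share only a number. Without the filter, 1081 were called between lineages, and the median log2 fold change of all genes moved from -0.11 to -0.79. Of 164 alternative values computed for the members' log2 fold changes, 155 kept their direction and side of the threshold. Between lineages, 4 no longer passed (*Bhlhe41* and *Ciart*), 4 newly passed (*Cry2* and *Cry1*) and 1 reversed, that of *Clock*, which was -1.81 without *Lepr* plate 1 and 0.0801 without *Lepr* plate 2 and passed in neither. *Bhlhe40* between lineages ran from -10.89 without *Lepr* plate 1, which held all of its *Lepr*-lineage UMIs, to -5.24 without *Lepr* plate 2. The causes of these shifts were not tested.

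*Bhlhe41* stayed lower on plates 1, 2 and 4 than on plates 5 to 9 in both cell groups under every scaling, cell choice and thinning tried, with steps of 1.34 to 1.7 in articular-like and 1.66 to 2.01 in *Cnmd*-rich cells. *Arntl*, *Clock* and *Cry1* had too few UMIs for a plate order. With 2 *Lepr* plates, leaving out 1 of them changed the lineage call of *Bhlhe41*, *Ciart*, *Cry2* or *Cry1*. Between cell groups *Dbp* fell under the filter in 4 alternatives (without plate 1 or 5, without abundant genes, and with a 2 times difference in the splitting genes), and *Ciart*, *Cry2* and *Dbp* did so between lineages against *Cnmd*-rich cells alone, and *Ciart* and *Cry2* with plates 1 and 2 alone, and *Ciart* without *Grem1* plate 1 or 6.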
